A study of Oryctolagus cuniculus with 9 samples.

Results

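The ligamentum flavum of a surgically fused spinal level was compared with that of sham-operated rabbits. The comparison took 6 of the 9 sequenced libraries, 3 from the fused level (Fused) and 3 from sham operation (Control), and all 23407 named gene rows of the deposited table. All animals were male New Zealand white rabbits aged 70 weeks. Operated animals had, at 18 weeks of age, the L3-4 supraspinal muscle resected and L2-3 and L4-5 joined by posterolateral fusion with instrumentation; Fused libraries came from a fused level, and a further 3 libraries (ISC) from the level of intervertebral stress concentration, used here as the other operated level. Control animals had a sham operation. Neither shared animals nor separate animals are recorded in the labels for any library. The spread behind each p-value is therefore that between samples, and it may be technical.

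The ligamentum flavum joins the laminae of neighbouring vertebrae and is rich in elastic fibres, which are built from elastin on a scaffold of fibrillins and cross-linked by lysyl oxidase. It inserts into the bone of the laminae, whose marrow makes blood cells, and borders the joint capsule, epidural fat, muscle and nerve roots. Fusion with instrumentation holds the neighbouring vertebrae together and limits their movement.

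Each value is a scaled read count, a gene's reads divided by a size factor of its library. Reads in genes numbered 1233155, 1485527 and 1491184 in Fused, 1605544, 1869209 and 1661090 in Control, and 1425820 to 1653832 in ISC, so that 3 reads were worth a scaled value between 2.40 and 3.58. Haemoglobin genes took 1.58%, 5.68% and 6.45% of reads in Fused replicates 1 to 3, against 0.269%, 0.114% and 0.249% in Control replicates 1 to 3. In ISC replicates 1 to 3 they took 0.505%, 5.03% and 0.429%. The tissue label was checked against elastic fibre and tendon genes. ELN was read in all 9 libraries, while TNMD, a marker of tendon cells, was at 0 in every Fused library, at most 0.799 in Control, and at 0, 0 and 12.04 in ISC. In tissue samples of this kind, fewer cells of a type and less RNA per cell cannot be told apart.

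Of 14686 genes tested, 584 (3.98%) rose and 382 (2.6%) fell in Fused, 6.58% in all, at a Benjamini-Hochberg adjusted p under 0.05 in limma. The counts given below for each gene list against Control are to be read beside these shares. Among genes whose groups did not overlap, the largest rises included HEMGN of red cell precursors, CAMP of neutrophils and DMP1 of bone. The largest falls included HTRA4, PRG4, CCL21, METTL11B and LOX. Both rankings held only genes without overlap, so the lack of overlap of their genes, also where given below, follows from the choice. Among the genes tested, 29.3% had no overlap between Fused and Control values, with Fused higher in 16% and lower in 13.3%. The median log2 change of all tested genes was 0.025, and -0.084 after centring each library on its median, a shift that applies to every change given here. Of the 966 genes called, 830 (85.9%) were also called in the authors' deposited table, which calls 1407 rows, so that 59.0% of its calls are shared.

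The number of genes called rested on single libraries. Limma called 0 genes when any of Fused replicates 2 and 3 or Control replicates 1 and 2 was left out, while 2811, 2733, 2737 and 2348 genes had an unadjusted p under 0.05. The lowest adjusted p was then 0.0707, 0.0640, 0.0523 and 0.0916, and edgeR called 0, 0, 4 and 0 genes. Limma called 2191 genes without Fused replicate 1, the Fused library with the smallest share of haemoglobin reads, and 342 without Control replicate 3. EdgeR called 2180 and 2 genes there. In limma each named call against Control was therefore lost when any of the first 4 of these libraries was left out.

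**Figure D1:**
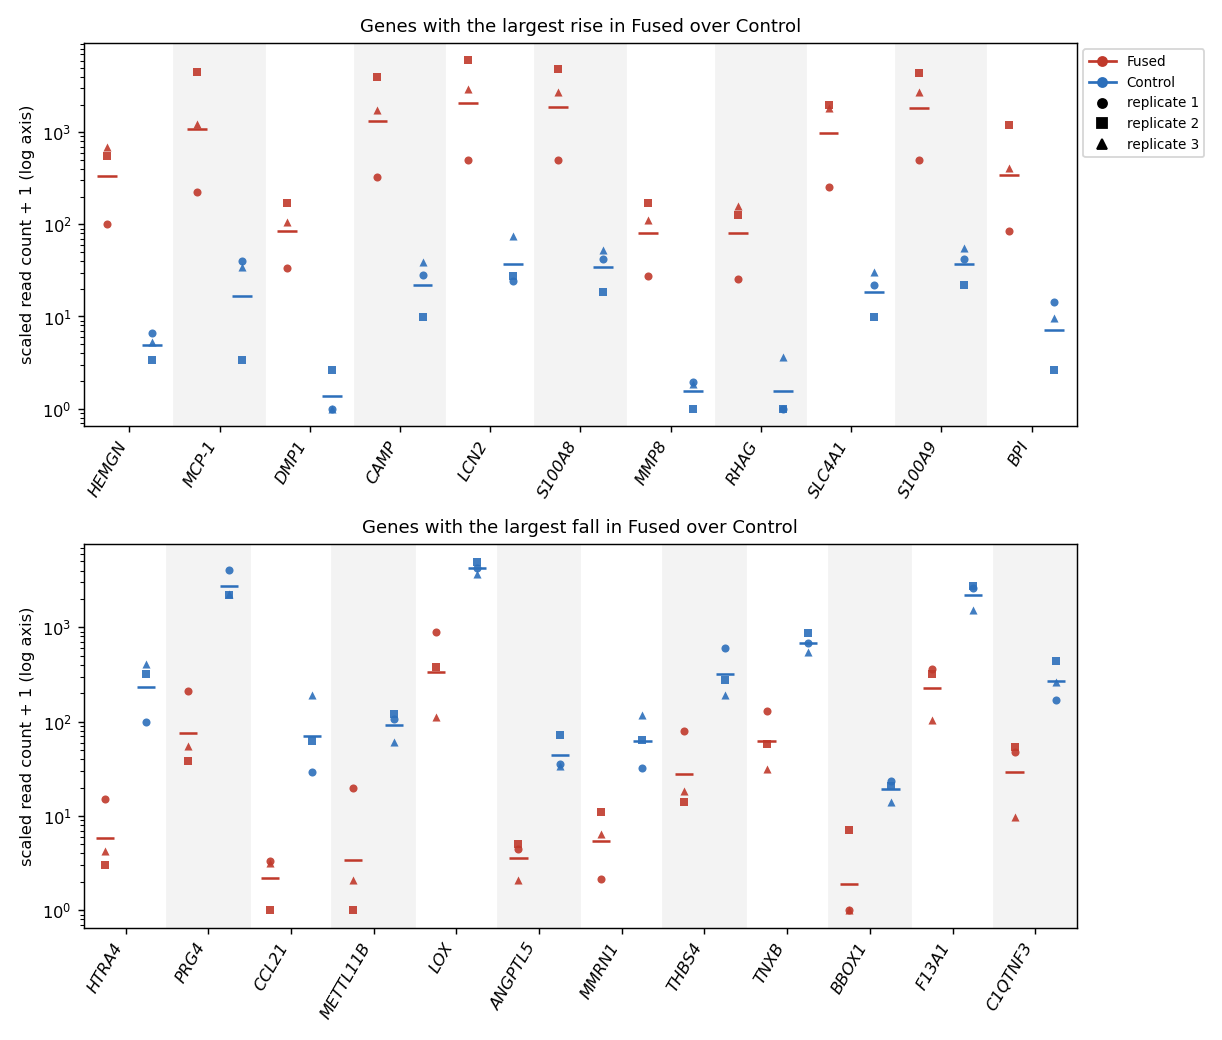
Scaled read count plus 1 (log axis) of the named genes with the largest rise (upper panel) and the largest fall (lower panel) in Fused over Control. Each point is a library, Fused in red at the left and Control in blue at the right of each gene, and the bar is the mean of the log values. Genes were chosen among those whose groups do not overlap, so the gap between Fused and Control points follows from the choice.

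Many genes of developing red cells rose. HBB2, a beta-type globin, had 22207, 84310.2 and 104546 in Fused and 3752, 1437 and 3364 in Control (log2 change 4.47, SE 0.80, adjusted p = 0.0201). HEMGN, hemogen, found in the nuclei of precursor cells of blood (chromosome 1, 15127522 to 15146950), had 101, 546 and 683 in Fused and 5.66, 2.40 and 4.35 in Control (log2 change 6.09, SE 0.65, adjusted p = 0.0142). HEMGN was picked among genes without overlap, and Fused replicate 1 was the lowest of the 3. SLC4A1, the anion exchanger of the red cell membrane, had 254, 1951 and 1839 in Fused and 20.7, 8.78 and 29.6 in Control (log2 change 5.70, SE 0.75, adjusted p = 0.0142). This gene, also picked among those without overlap, was again lowest in Fused replicate 1.

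Of 15 tested genes that regulate or mark red cell precursors, 13 rose and 0 fell, with a median log2 change of 3.91. GATA1, the transcription factor that commits cells to this lineage, had 11.6, 97.6 and 56.8 in Fused and 1.89, 0 and 0.870 in Control (log2 change 4.57, SE 0.77, adjusted p = 0.0183). KLF1, which switches on the globin genes, had 4.65, 33.2 and 30.6 in Fused and 0, 0 and 0.870 in Control (log2 change 3.89, SE 0.74, adjusted p = 0.0229). LMO2 and BCL11A of the same list did not pass the test (adjusted p = 0.103 and 0.132). Of 17 red cell membrane genes 12 rose and 1 fell, with a median of 4.22; the gene that fell was AQP1, chosen after its values were seen, a water channel that vessels and other cells also make, with 995, 870.0 and 1204 in Fused and 1923, 2425 and 1975 in Control (adjusted p = 0.0344). Of 19 genes of haem and iron handling 4 rose, with a median of 1.58. Among them were ALAS2, the first enzyme of haem synthesis in red cells, FECH, which inserts the iron, and TFRC, the transferrin receptor. ALAS2 had 670.1, 2801 and 3367 in Fused and 119, 35.1 and 83.5 in Control (log2 change 4.69, SE 0.63, adjusted p = 0.0142), while the ferritin genes FTH1 and FTL did not pass (adjusted p = 0.623 and 0.688). In a fit of all 9 libraries with the haemoglobin share as a covariate, the medians of these 3 lists were -0.62, -0.75 and -1.12, and 0 genes of the whole table were called. The fit of all 9 libraries without the covariate already called only 25 genes. The share did not overlap between Fused and Control, so this fit separates its effect poorly from that of the group. ISC replicate 2, with 5.03% haemoglobin reads, had 943 for HEMGN and 2779.7 for SLC4A1.

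Many neutrophil genes rose. CAMP, the cathelicidin of neutrophil granules, had 329.8, 4010.0 and 1756 in Fused and 27.3, 8.78 and 38.3 in Control (log2 change 5.90, SE 0.84, adjusted p = 0.0159). S100A8 and S100A9, which form calprotectin, rose by 5.75 and 5.62 on the log2 scale. S100A8 had 494, 4915 and 2713 in Fused and 41.5, 17.6 and 52.2 in Control, with Fused replicate 2 highest. MMP8, the neutrophil collagenase, had 26.7, 169 and 112 in Fused and 0.943, 0 and 0.870 in Control (log2 change 5.72, SE 0.67, adjusted p = 0.0142). Of 25 tested genes of secondary granules and the neutrophil surface 20 rose and 0 fell, with a median of 4.28; LCN2, LYZ and CSF3R, the receptor of granulocyte colony-stimulating factor, were among them. Of 5 primary granule genes 3 rose, MPO, BPI and SRGN, while SERPINB1 and CTSC did not pass (adjusted p = 0.384 and 0.0515). With the haemoglobin share as a covariate the medians of the secondary and primary granule lists were -0.35 and -0.56. MPO, the myeloperoxidase of young granules, had 12.8, 301 and 91.8 in Fused and 4.71, 1.60 and 0.870 in Control (log2 change 4.59, SE 0.99, adjusted p = 0.0333).

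The row named MCP-1 (scaffold Un0015, 172905 to 174436) was among the largest rises, with 222, 4546 and 1239.8 in Fused and 38.7, 2.40 and 33.1 in Control (log2 change 6.02, SE 1.17, adjusted p = 0.0239). The RefSeq gene table gives this row the synonyms CS-4 and NP-2, names of a rabbit defensin, an antimicrobial peptide. It is a different row from CCL2, also chosen after its values were seen, the chemokine often called MCP-1 in other species, which had 5.81, 5.03 and 1.09 in Fused and 17.9, 3.19 and 6.09 in Control and did not pass (adjusted p = 0.492). A further 3 rows of the same scaffold, chosen after their values were seen, also rose: MCP2, LOC100009136 and LOC100009135, by 5.22, 5.37 and 4.80 on the log2 scale. LOC100009136 carries the synonyms CS-6 and NP-5 in that table. Closely similar genes may share reads here, so the split between these rows is uncertain.

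Other blood cell lists rose in part. Of 9 mast cell, basophil and eosinophil genes 4 rose, with a median of 3.54, which was -0.51 with the haemoglobin covariate. FCER1A, the alpha chain of the IgE receptor, had 5.81, 48.3 and 20.8 in Fused and 0 in every Control library, at least 9.56-fold higher against a floor of 3 reads per Control library. PRG2, the eosinophil major basic protein, had 29.0, 767 and 144 in Fused and 3.77, 0.799 and 13.9 in Control (log2 change 4.89, SE 1.12, adjusted p = 0.0403). Of 18 B cell and plasma cell genes 7 rose, among them JCHAIN, which joins antibody molecules, and MS4A1, the B cell surface protein CD20. JCHAIN had 269, 638 and 625 in Fused and 12.3, 17.6 and 32.2 in Control (log2 change 4.56, SE 0.41, adjusted p = 0.0142). Of 14 T cell and NK cell genes 3 rose, IL7R, NKG7 and CD6, at low values. NKG7 had 3.48, 40.2 and 14.2 in Fused and 0 in each Control library, and CD8A did not pass (adjusted p = 0.973).

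Of 19 monocyte and macrophage genes 7 rose, with a median of 1.56. CD14, the receptor for bacterial lipopolysaccharide, had 52.3, 83.5 and 50.3 in Fused and 3.77, 9.58 and 13.9 in Control (log2 change 2.75, SE 0.44, adjusted p = 0.0169). Among the members that did not pass, C1QC, a complement component made by macrophages, had 89.4, 151 and 77.6 in Fused and 55.6, 110.2 and 87.0 in Control (adjusted p = 0.598), and MRC1 and CSF1R had adjusted p = 0.866 and 0.637. The groups overlapped for each of these 3 genes. Of 13 megakaryocyte and platelet genes 0 passed the test as risers, though 10 had a positive and 3 a negative change, with a median of 1.69. The mean level of the list over Control was -0.067, 2.79 and 0.39 in Fused replicates 1 to 3. The 2 genes that fell were MMRN1 and F13A1, both also made outside platelets. ITGB3, an integrin chain of platelets and other cells, had 19.7, 272 and 48.1 in Fused and 17.9, 10.4 and 13.9 in Control (adjusted p = 0.145). Of 17 blood progenitor genes 7 rose, among them PTPRC, the pan-leukocyte protein CD45, with 55.7, 238 and 146 in Fused and 10.4, 6.39 and 19.1 in Control (log2 change 3.40, SE 0.54, adjusted p = 0.0169). CD34, which fibroblasts and endothelium also carry, fell to 374, 171 and 144 in Fused, against 562, 814 and 555 in Control (log2 change -1.59, SE 0.34, adjusted p = 0.0331).

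Of 13 marrow stroma genes 2 rose. CXCL12, the chemokine that holds blood stem cells in the marrow, had 325, 1021 and 1150.1 in Fused and 111, 63.1 and 116 in Control (log2 change 2.95, SE 0.46, adjusted p = 0.0169), again with replicate 1 lowest in Fused. GREM1, a secreted BMP inhibitor, had 77.8, 43.2 and 141 in Fused and 12.3, 10.4 and 16.5 in Control (log2 change 2.52, SE 0.41, adjusted p = 0.0172). LPL, FOXC1 and VCAM1 of this list did not pass (adjusted p = 0.591, 0.176 and 0.247).

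Many genes of dividing cells rose. Of 31 tested genes of mitosis 20 rose and 0 fell, with a median of 3.62, and of 26 genes of DNA replication 11 rose and 0 fell, with a median of 1.78. MKI67, the proliferation marker Ki-67, had 41.8, 337 and 461 in Fused and 6.60, 4.79 and 6.09 in Control (log2 change 4.80, SE 0.77, adjusted p = 0.0169). RRM2, which makes DNA precursors, had 25.5, 266 and 157 in Fused and 1.89, 3.19 and 2.61 in Control (log2 change 4.88, SE 0.75, adjusted p = 0.0169). Fused replicate 1, lowest in haemoglobin reads of the Fused group, was lowest for both genes. PCNA and CCNA2 overlapped between the groups and did not pass (adjusted p = 0.203 and 0.124). CDKN1A, the cell cycle inhibitor p21, fell to 66.2, 69.4 and 45.9 in Fused, against 237, 195 and 163 in Control (log2 change -1.70, SE 0.22, adjusted p = 0.0142). Of 11 tested genes of cell cycle arrest and senescence it alone passed the test. Their changes were 6 positive and 5 negative, with a median of 0.09. With the haemoglobin share as a covariate the medians of the mitosis and DNA replication lists were -1.29 and -1.27. The chromatin genes EZH2, LMNB1 and LBR rose, 3 of 10 in their list, whose median was 1.30, and -1.07 with the covariate. The part of blood cells in the rise of the division genes was not tested.

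**Figure D2:**
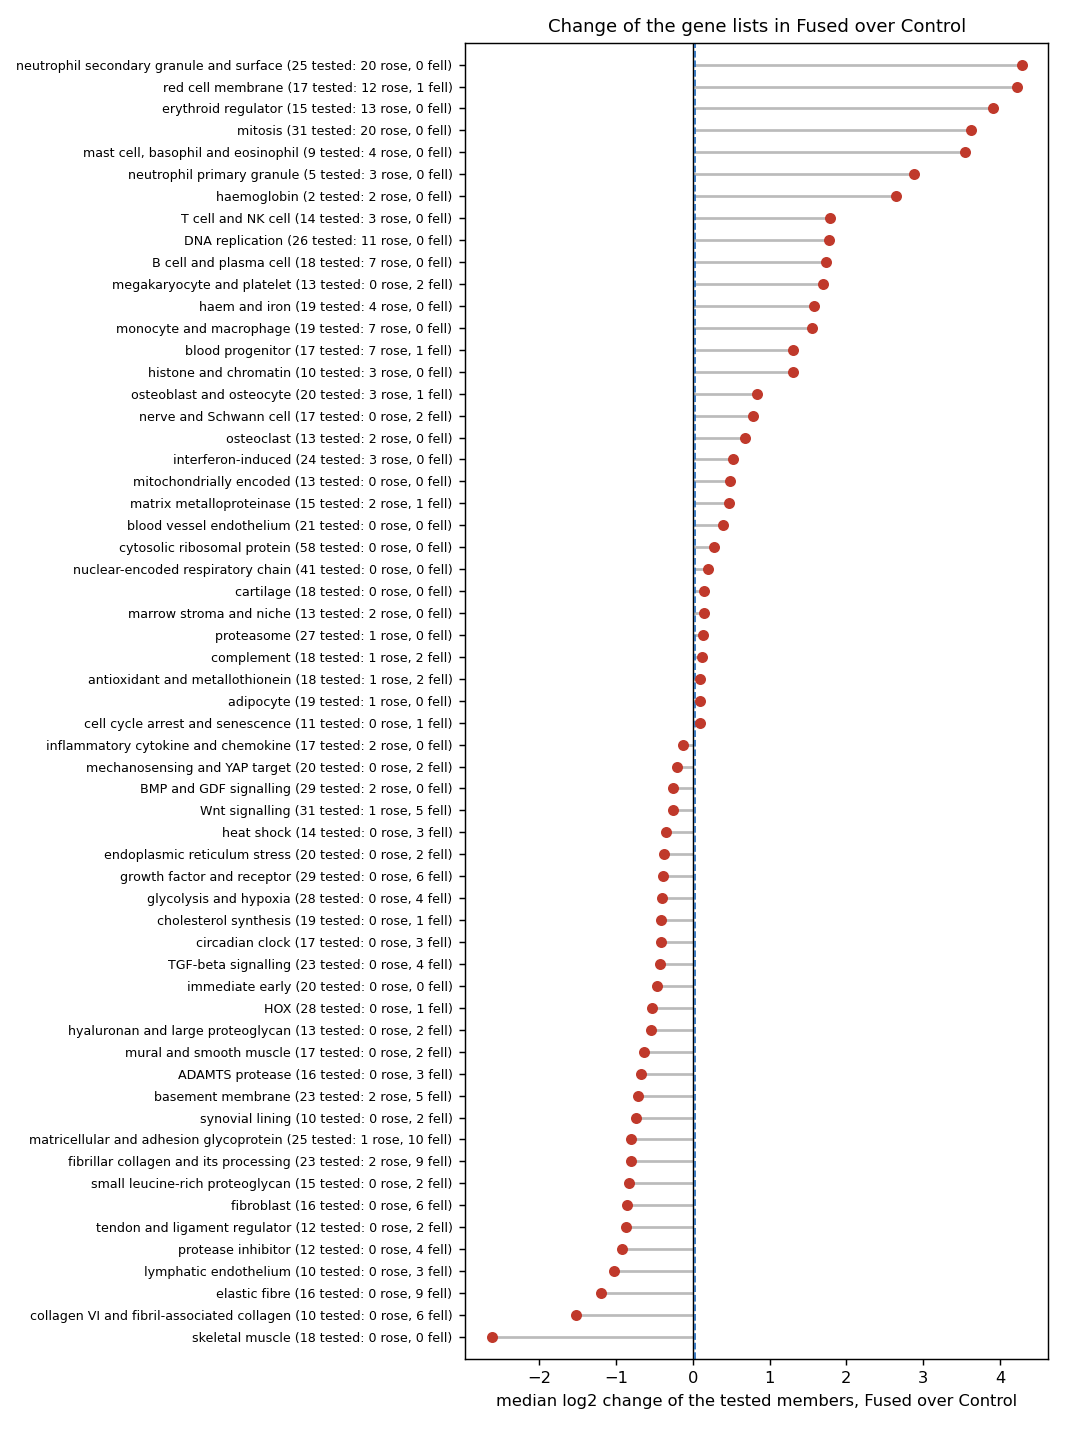
Median log2 change of the tested members of each of the 59 gene lists, Fused over Control, with the number of members that rose and fell beside the name. The dashed line is the median of all tested genes (0.025); neutrophil, red cell and mitosis lists lie at the top, and skeletal muscle, fibril-associated collagen and elastic fibre lists at the bottom.

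Bone genes rose in part, and different Fused libraries led for different genes. DMP1, a matrix protein of osteocytes (chromosome 15, 62506769 to 62514998), had 32.5, 171 and 106 in Fused and 0, 1.60 and 0 in Control (log2 change 5.95, SE 0.66, adjusted p = 0.0142). In the ISC libraries it had 1.07, 7.16 and 5.02, and the difference of Fused from ISC did not pass (adjusted p = 0.0778). The part of blood and marrow cells in the rise of DMP1 was not tested. MMP13, a collagenase of bone and cartilage, had 208, 2518 and 705 in Fused and 2.83, 14.4 and 55.7 in Control (log2 change 5.59, SE 1.05, adjusted p = 0.0221). In ISC it had 11.8, 126.5 and 435.4, overlapping Fused, and the difference of Fused from ISC did not pass (adjusted p = 0.496). RUNX2, the transcription factor of osteoblasts, had 97.5, 154 and 121 in Fused and 58.4, 73.5 and 53.1 in Control (log2 change 0.99, SE 0.22, adjusted p = 0.0344). All 3 genes had higher values in every Fused library than in any Control library, which for DMP1 follows from its choice. Of 20 tested osteoblast and osteocyte genes these 3 rose and 1 fell, ANKH, which exports an inhibitor of mineralization; the median was 0.84, and 0.49 without Fused replicate 2.

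MEPE, SOST and FGF23, named after their values were seen, encode secreted proteins of osteocytes and were highest in Fused replicate 3. MEPE had 5.81, 24.1 and 501 in Fused and 0, 1.60 and 0.870 in Control (adjusted p = 0.0731), and SOST had 3.48, 20.1 and 247 in Fused and 0.943, 1.60 and 0.870 in Control (adjusted p = 0.105). FGF23 had 0, 23.1 and 68.9 in Fused and 0 in each Control library, and was not tested. IBSP, a bone matrix protein, and ACP5 were highest in Fused replicate 2, as DMP1 was. IBSP had 32.5, 709 and 98.4 in Fused and 11.3, 37.5 and 82.6 in Control (adjusted p = 0.306), and ACP5, an acid phosphatase of osteoclasts, had 6.97, 218 and 10.9 in Fused and 0.943, 2.40 and 17.4 in Control (adjusted p = 0.288). Both were named after their values were seen, and their groups overlapped. COL1A1, the main collagen of bone and ligament, had 1963, 18111 and 1644 in Fused and 3144, 5379.9 and 3519 in Control (adjusted p = 0.997). Of 13 osteoclast genes 2 rose, RUFY4 and CA2, a carbonic anhydrase that red cells also hold, while CTSK, cathepsin K, had 1191, 1285 and 569.6 in Fused and 1621, 1824 and 1494 in Control (adjusted p = 0.19).

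**Figure D3:**
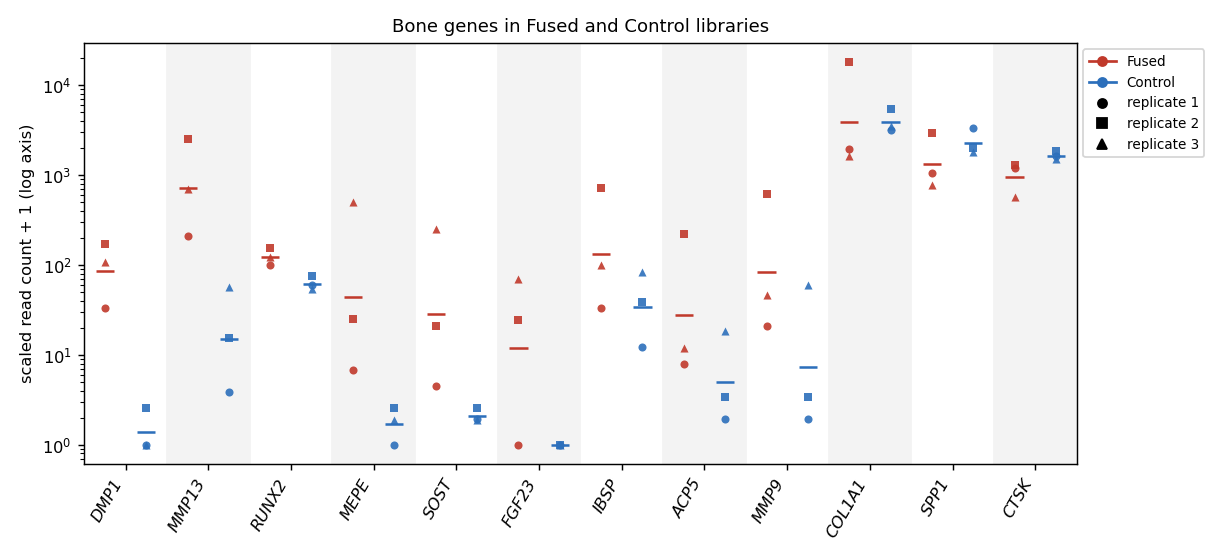
Scaled read count plus 1 (log axis) of 12 genes of bone cells and bone matrix, with Fused libraries in red at the left and Control libraries in blue at the right of each gene. Bars are means of the log values and marker shapes are replicate numbers. Fused replicate 3 is highest for MEPE, SOST and FGF23, and Fused replicate 2 for MMP13, IBSP, ACP5 and COL1A1.

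Elastin, lysyl oxidase and 7 further elastic fibre genes fell. ELN, elastin itself (scaffold Un0067, 654638 to 665917), had 411, 265 and 146 in Fused and 1394, 2046 and 1001 in Control (log2 change -2.49, SE 0.39, adjusted p = 0.0169). LOX, lysyl oxidase (chromosome 3, 6327801 to 6342402), had 897, 377 and 112 in Fused and 4260.2, 4968 and 3652 in Control (log2 change -3.66, SE 0.63, adjusted p = 0.0188). Neither gene overlapped between the groups, which for LOX follows from its choice. For both genes Fused replicate 1, the Fused library with the smallest haemoglobin share, was the highest of the Fused group. Fused replicate 3, with the largest share, was the lowest. Of 16 tested elastic fibre genes 9 fell and 0 rose, with a median of -1.19, and 12 lay lower in every Fused library than in any Control library. The others that fell were FBLN1, FBLN5, MFAP4, MFAP5, EMILIN1, LTBP2 and LTBP4. LTBP2, a microfibril protein, had 1348, 1231 and 551 in Fused and 4974, 4395 and 3669 in Control (log2 change -2.15, SE 0.37, adjusted p = 0.0188).

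Other members did not pass the test. FBN1, the fibrillin of adult microfibrils, had 772, 407 and 331 in Fused and 798, 1359 and 825 in Control (log2 change -1.03, adjusted p = 0.109), with every Fused library lower than every Control library. EFEMP1, fibulin-3, had 856, 864 and 1428 in Fused and 887, 1085 and 921 in Control (adjusted p = 0.885), with the groups overlapping. In Fused replicate 1 alone against the Control libraries the elastic fibre median was -0.65. With the haemoglobin share as a covariate it was -0.45, and ISC replicate 2, with 5.03% haemoglobin reads, had 3754 for ELN and 4391 for LOX. The part of marrow and blood cells in these falls was not tested.

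Some collagen genes fell and others did not pass the test. COL3A1, the collagen of fine fibrils, had 4886, 2092 and 1655 in Fused and 13155, 21395 and 9799 in Control (log2 change -2.45, SE 0.55, adjusted p = 0.0375). COL5A1, which seeds fibrils, had 374, 377 and 202 in Fused and 923, 1121 and 872 in Control (log2 change -1.66, SE 0.26, adjusted p = 0.0169). COL1A2, by contrast, had 3936, 19631 and 2733 in Fused and 4212, 9830.3 and 6267 in Control (adjusted p = 0.958), so that Fused replicate 2 lay above every Control library and the other Fused libraries below. Of 23 genes of fibrillar collagen and its processing 9 fell and 2 rose, with a median of -0.81. Genes that modify or process collagen, beside its chaperone SERPINH1, made up 6 of the 9 that fell: PCOLCE2, PLOD1, PLOD2, PLOD3, P4HA1 and P4HA2. PCOLCE2, an enhancer of propeptide removal, had 247, 156 and 92.9 in Fused and 2752, 925 and 781 in Control (log2 change -3.03, SE 0.50, adjusted p = 0.0174). COL24A1, a collagen of bone, rose, with 58.1, 71.4 and 56.8 in Fused and 16.0, 16.8 and 26.1 in Control (log2 change 1.64, SE 0.26, adjusted p = 0.0169).

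Of 10 tested genes of collagen VI and the collagens that coat fibrils 6 fell and 0 rose, with a median of -1.52. COL14A1 had 359, 129 and 65.6 in Fused and 758, 1875 and 1006 in Control (log2 change -2.95, SE 0.57, adjusted p = 0.0233), and COL6A1 had 626, 344 and 284 in Fused and 1463, 2535 and 1419.6 in Control (log2 change -2.14, SE 0.34, adjusted p = 0.0169). COL12A1 overlapped between the groups (adjusted p = 0.287). Of 23 basement membrane genes 5 fell and 2 rose, with a median of -0.72, and 0.025 in Fused replicate 1 alone. COL15A1, at the outer face of basement membranes, had 149, 88.5 and 61.2 in Fused and 798, 561 and 383 in Control (log2 change -2.56, SE 0.35, adjusted p = 0.0154), while COL4A1 and COL4A2, of vessel basement membranes, did not pass (adjusted p = 0.627 and 0.44).

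Adhesion proteins and proteoglycans fell in part. Of 25 matricellular and adhesion genes 10 fell and 1 rose, with a median of -0.80. TNXB, a tenascin whose loss in humans loosens connective tissue, had 128, 56.3 and 30.6 in Fused and 686, 874 and 545 in Control (log2 change -3.49, SE 0.44, adjusted p = 0.0142). THBS4, a thrombospondin of tendon, had 79.0, 13.1 and 17.5 in Fused and 602, 276 and 189 in Control (log2 change -3.52, SE 0.64, adjusted p = 0.0206). POSTN, periostin, had 1139, 829.8 and 362 in Fused and 6050.4, 5005 and 3069.7 in Control (log2 change -2.69, SE 0.44, adjusted p = 0.0175). These 3 genes were lower in every Fused library, which for TNXB and THBS4 follows from their choice. Of 15 small leucine-rich proteoglycans 2 fell, FMOD and PRELP, with a median of -0.83, while DCN, decorin, and BGN, biglycan, did not pass (adjusted p = 0.129 and 0.0702). HAS1, a hyaluronan synthase, was at 0 in all Fused libraries and had 9.43, 2.40 and 3.48 in Control (adjusted p = 0.0403).

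Of 15 matrix metalloproteinases MMP8 and MMP13 rose and MMP2, gelatinase A, fell, with 609.7, 407 and 259 in Fused and 895, 1669 and 855 in Control (adjusted p = 0.05 as rounded). Protease inhibitors fell in 4 of 12 cases, SERPINE2, SERPING1, SPINT2 and TIMP3, and all 12 had a negative change (median -0.92). TIMP3, which stays bound to matrix, had 454, 254 and 268 in Fused and 685, 697 and 578 in Control (log2 change -1.05, SE 0.24, adjusted p = 0.039). Of 16 ADAMTS genes 3 fell, ADAMTSL3 and the fibrillin-binding ADAMTS10 and ADAMTSL4.

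The joint lining gene PRG4, lubricin (chromosome 16, 84071632 to 84086913), had 209, 37.2 and 54.7 in Fused and 4058, 2180.1 and 2250.3 in Control (log2 change -5.15, SE 0.56, adjusted p = 0.0142). HTRA4, a serine protease (scaffold Un0008, 4425599 to 4436510), had 13.9, 2.01 and 3.28 in Fused and 99.0, 317 and 406 in Control (log2 change -5.35, SE 0.67, adjusted p = 0.0142). Both were picked among genes without overlap, and of 10 synovial lining genes they were the only 2 to fall. Of 16 fibroblast genes 6 fell and 0 rose, with a median of -0.86. DPT, dermatopontin, had 519, 199 and 335 in Fused and 909, 1510.1 and 1399 in Control (log2 change -1.93, SE 0.35, adjusted p = 0.0202), whereas VIM, vimentin, and PDGFRA, a receptor of fibroblasts, overlapped between the groups (adjusted p = 0.424 and 0.44). Of 12 genes of tendon and ligament cells 2 fell. FIBIN, one of them, had 243, 112 and 45.9 in Fused and 1058, 1192 and 752 in Control (log2 change -3.18, SE 0.51, adjusted p = 0.0169).

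Of the vessel lists, 2 held genes that fell and none held genes that rose. Of 10 lymphatic endothelial genes 3 fell, CCL21, MMRN1 and TBX1, with a median of -1.02, which was 0.66 with the haemoglobin share as a covariate. CCL21, the chemokine of lymphatic vessels, had 2.32, 0 and 2.19 in Fused and 28.3, 61.5 and 189 in Control (adjusted p = 0.0164). Of 21 blood vessel endothelial genes 0 passed the test, with a median of 0.40; PECAM1 had 520.3, 268 and 325 in Fused and 147, 209 and 412 in Control (adjusted p = 0.386). Of 17 mural and smooth muscle genes 2 fell, CSPG4 and PDGFRB, with a median of -0.63, which was 0.85 with the covariate and 0.33 in Fused replicate 1 alone, while ACTA2, smooth muscle actin, had 1333, 436 and 139 in Fused and 559, 637 and 1184 in Control (adjusted p = 0.553).

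For neighbouring tissues few genes passed the test, and single libraries stood apart. Of 18 skeletal muscle genes 0 passed the test. The median was -2.62, and -1.17 without Control replicate 1, and MYH1, a myosin of fast muscle, had 3.48, 2.01 and 3.28 in Fused and 771, 7.99 and 144 in Control (adjusted p = 0.0699). Of 19 adipocyte genes only RETN passed, with a median of 0.092, and FABP4 had 2129.8, 1337 and 1361 in Fused and 588, 1145 and 2364 in Control (adjusted p = 0.644). Of 18 cartilage genes 0 passed, with a median of 0.15. COL2A1, the collagen of cartilage, had 74.3, 805 and 15.3 in Fused and 18.9, 3.19 and 9.57 in Control (adjusted p = 0.139), with Fused replicate 2 highest. ACAN, aggrecan, had 159, 200.2 and 36.1 in Fused and 939.9, 489 and 249.6 in Control (adjusted p = 0.0854). Of 17 nerve and Schwann cell genes 2 fell, PMP22 and NCAM1.

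**Figure D4:**
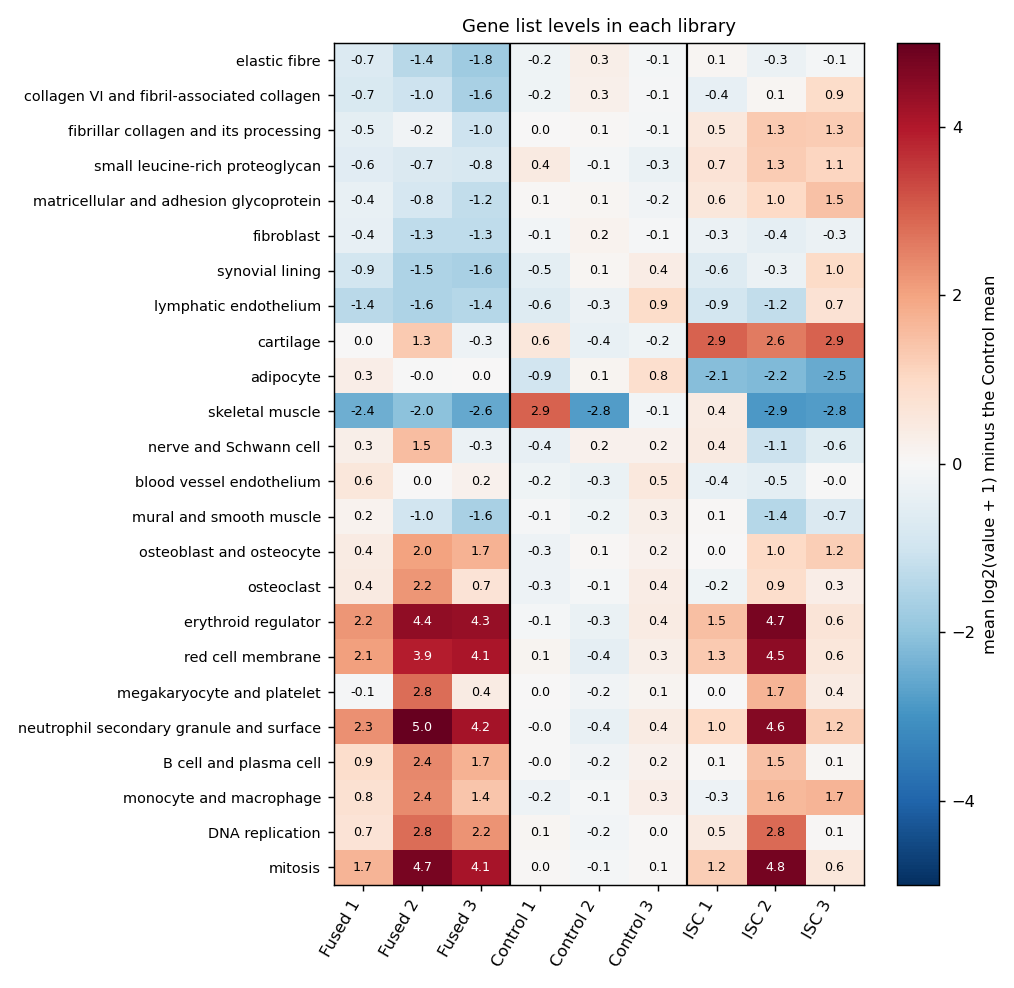
Mean log2(value + 1) of 24 gene lists in each library, minus the mean of the 3 Control libraries. Columns are the Fused, Control and ISC libraries, and red is above and blue below Control. Fused replicates 2 and 3 and ISC replicate 2 share high red cell, neutrophil and mitosis levels. Their elastic fibre levels are -1.38, -1.77 and -0.29. ISC replicate 2 is 1 library of the other operated level, with a fibrillar collagen level of 1.31. What sets these elastic fibre levels apart was not tested.

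Signalling lists held more genes that fell than rose, except the BMP list. Of 23 TGF-beta genes 4 fell, LTBP2, LTBP3, LTBP4 and INHBA, and of these the first 3 are matrix proteins, some of which hold latent TGF-beta. TGFB1 had 18.6, 47.3 and 27.3 in Fused and 12.3, 32.7 and 20.9 in Control (adjusted p = 0.567), and its target CTGF had 2925, 1740.0 and 1556 in Fused and 4908, 3549.6 and 2429 in Control (adjusted p = 0.243). Of 31 Wnt genes 5 fell and 1 rose. SFRP4, a secreted Wnt inhibitor, had 152, 220.3 and 228 in Fused and 831, 795 and 464 in Control (log2 change -1.77, SE 0.26, adjusted p = 0.0164), whereas SFRP1, another inhibitor, had 275, 208 and 259 in Fused and 88.6, 166 and 123 in Control (log2 change 1.01, SE 0.24, adjusted p = 0.0433). Of 29 BMP genes 2 rose, GREM1 and BMP3, and 0 fell. In that list 19 changes were negative and 10 positive, with a median of -0.26. BMP3 had 19.7, 54.3 and 97.3 in Fused and 4.71, 11.98 and 7.83 in Control (log2 change 2.48, SE 0.57, adjusted p = 0.0403). Of 29 growth factor genes 6 fell, among them IGFBP6, PDGFC and PDGFD. Of 20 genes of mechanosensing and YAP targets 2 fell, AXL and ITGA11, a collagen receptor, with ITGA11 at 168, 119.7 and 102 in Fused and 383, 413 and 259 in Control (log2 change -1.43, SE 0.24, adjusted p = 0.0184).

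Some inflammatory genes passed the test, as did 6.58% of all genes tested. Of 17 cytokine and chemokine genes 2 rose and 0 fell, with 8 positive and 9 negative changes and a median of -0.12. CXCL8, which draws neutrophils, had 49.9, 170.0 and 70.0 in Fused and 9.43, 1.60 and 4.35 in Control (log2 change 4.02, SE 0.59, adjusted p = 0.0164), and IL1B had 13.9, 66.4 and 40.5 in Fused and 3.77, 0 and 0 in Control (log2 change 4.36, SE 0.77, adjusted p = 0.0196). In the interferon-induced list 3 of 24 genes rose (IFIT3, RSAD2 and CMPK2), while MX1 did not pass (adjusted p = 0.84). Of 18 complement genes C5AR1, a receptor of neutrophils and macrophages, rose, and CFB and SERPING1 fell. Of 20 immediate early genes 0 passed, and FOS had 251, 484 and 284 in Fused and 2104, 39.9 and 72.2 in Control (adjusted p = 0.751), with Control replicate 1 apart from the rest.

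Ribosomal and respiratory chain genes did not pass the test. Of 58 ribosomal protein genes 0 passed, with a median of 0.28, and of 41 nuclear genes of the respiratory chain 0 passed, with a median of 0.19. Of 28 genes of glycolysis and hypoxia 4 fell, PFKFB3, LDHA, P4HA1 and PLOD2. PFKFB3, a regulator of glycolysis, had 222, 284 and 279 in Fused and 638, 612 and 575 in Control (log2 change -1.22, SE 0.16, adjusted p = 0.0142). Of 14 heat shock genes 3 fell, CRYAB, BAG3 and SERPINH1, the collagen chaperone, and of 20 genes of endoplasmic reticulum stress 2 fell, HSPA5 and DDIT3. Of 17 clock genes 3 fell, PER2, BHLHE40 and BHLHE41. Of 28 HOX genes, which mark position along the body, 1 fell, a share near the 2.6% of all genes tested. It was HOXB6, with 44.1, 39.2 and 40.5 in Fused and 115, 83.1 and 107 in Control (log2 change -1.27, SE 0.19, adjusted p = 0.0164). HOXC6 did not pass (adjusted p = 0.065).

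The fused level was then set against the other operated level, a test equal to that of the difference between their changes from the shared Control libraries. Of 15404 genes tested, 12 (0.0779%) were higher and 31 (0.201%) lower in Fused than in ISC, 0.279% in all. Of the 31 lower genes 23 also fell against Control, and the 12 higher genes did not pass against Control. The count was 0 without Fused replicate 3 (1059 genes at an unadjusted p under 0.05), 3 without Fused replicate 2, 24 without Fused replicate 1, and 9, 12 and 15 without ISC replicates 1, 2 and 3. EdgeR called 29 genes, and without Fused replicates 1, 2 or 3 it called 0, with 1457, 1178 and 990 genes at an unadjusted p under 0.05.

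Some matrix and cartilage genes were lower in Fused than in ISC. The lower calls were 0 of 16 elastic fibre genes, 3 of 24 fibrillar collagen genes, 1 of 10 genes of collagen VI and fibril-associated collagens, 1 of 15 small leucine-rich proteoglycans and 4 of 25 matricellular genes. PRG4 had the Fused values above and 1387, 4109 and 5494 in ISC (log2 difference -5.37, SE 0.72, adjusted p = 0.0369), and every Fused library lay below every ISC library. ABI3BP, a matrix glycoprotein, had 698, 309.8 and 279.9 in Fused, 2717, 4336 and 4163 in ISC and 1778, 1719 and 1206 in Control, with Fused lower than ISC (log2 difference -3.22, SE 0.40, adjusted p = 0.0312) and lower than Control (adjusted p = 0.0195). CHAD, chondroadherin of cartilage, had 72.0, 138 and 61.2 in Fused, 1815, 1658 and 1245 in ISC and 611, 178 and 109.6 in Control, lower than ISC (log2 difference -4.18, SE 0.33, adjusted p = 0.012) but not past the test against Control (adjusted p = 0.18). SOX9, the transcription factor of chondrocytes, had 24.4, 26.2 and 16.4 in Fused, 139, 146 and 80.3 in ISC and 131, 54.3 and 44.4 in Control (log2 difference -2.37, SE 0.32, adjusted p = 0.0369 against ISC). Of 19 cartilage genes tested against ISC 4 were lower in Fused, and the median difference was -2.94. For ELN and LOX the difference from ISC did not pass (adjusted p = 0.0678 and 0.105), nor for HEMGN and CAMP (adjusted p = 0.721 and 0.671).

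Some adipocyte genes were higher in Fused than in ISC and did not pass the test against Control. FABP4, the fatty acid carrier of fat cells, had 2129.8, 1337 and 1361 in Fused, 271, 143 and 176 in ISC and 588, 1145 and 2364 in Control (log2 difference 3.04, SE 0.31, adjusted p = 0.0278 against ISC). LIPE, hormone-sensitive lipase, and CIDEC, a lipid droplet protein, were named after their values were seen. LIPE had 182, 182 and 213 in Fused, 34.3, 22.7 and 23.1 in ISC and 67.9, 98.2 and 251 in Control (log2 difference 2.83, SE 0.23, adjusted p = 0.012 against ISC), and CIDEC had 169.5, 78.5 and 117 in Fused, 7.51, 13.1 and 6.02 in ISC and 43.4, 134 and 219 in Control (log2 difference 3.63, SE 0.40, adjusted p = 0.0285 against ISC). Every Fused library lay above every ISC library for these 3 genes, while Fused and Control overlapped. Of 19 adipocyte genes 7 were higher in Fused, with a median difference of 2.56.

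**Figure D5:**
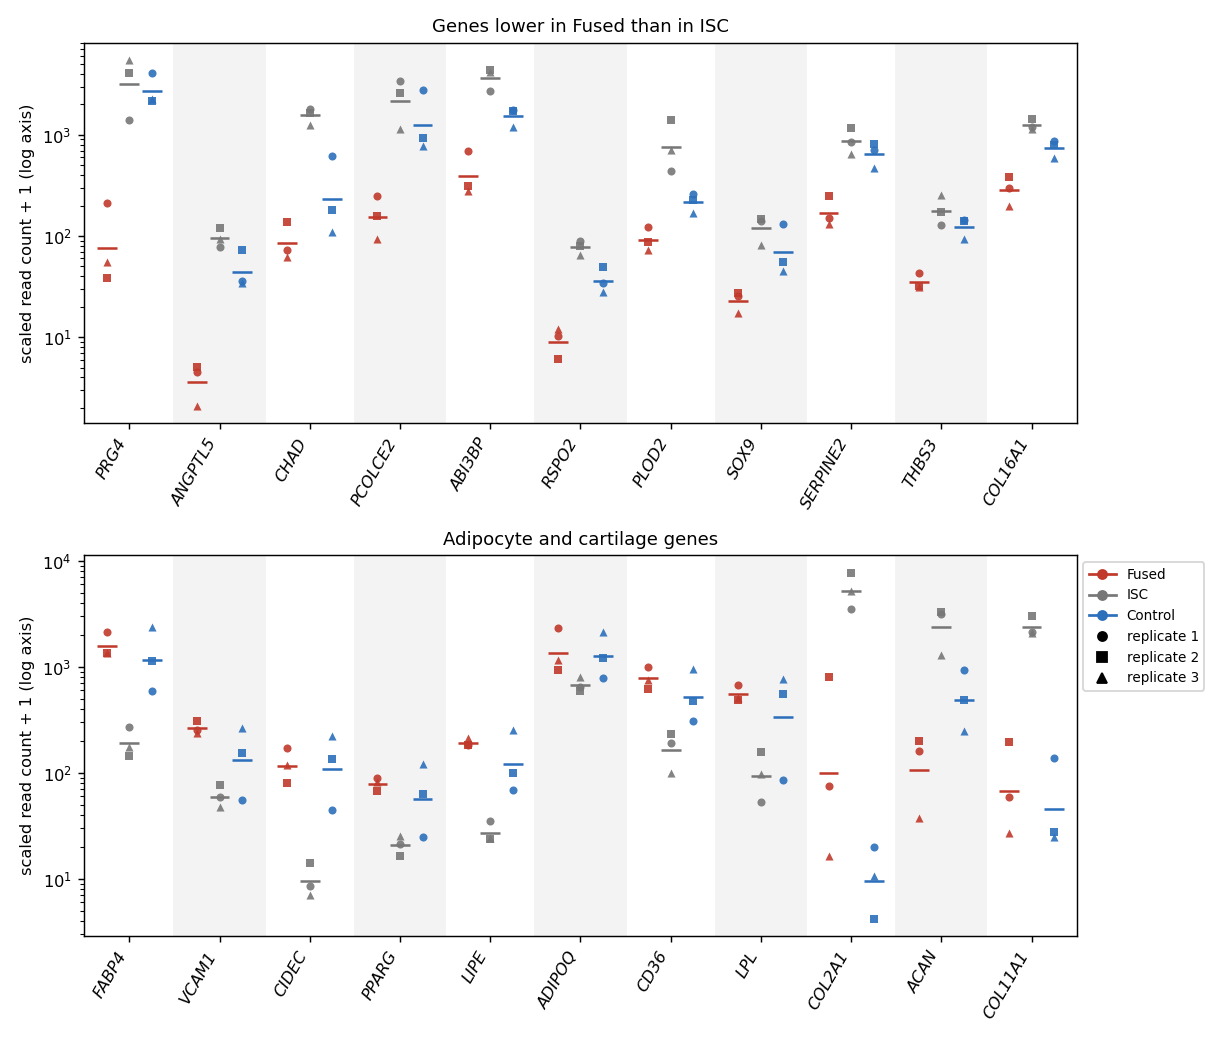
Scaled read count plus 1 (log axis) in Fused (red, left), ISC (grey, middle) and Control (blue, right). The upper panel holds 11 named genes lower in Fused than in ISC, and the lower panel adipocyte and cartilage genes and VCAM1; bars are means of the log values. FABP4, LIPE and CIDEC lie higher in Fused than in ISC in every library, and COL2A1 and COL11A1 lie highest in ISC.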

How the data were processed

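RNA was sequenced from 9 libraries of ligamentum flavum, made from total RNA with a strand-keeping kit, per the labels' protocols. Reads were aligned to oryCun2 with TopHat, per the submitters' processing notes. The series' design text also names Cufflinks. The deposited values are a normalized signal, read counts that the authors divided by a TMM size factor of each library, as the tables are named; the sources used here name no counting tool or strand setting. Every value was a whole multiple of the library's smallest (100% of values, tolerance 1e-06), so counts were recovered from the deposited values by division. The authors' deposited table also holds p-values, q-values and calls; called rows had q-values up to 0.0998.

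Limma 3.58.1 (R 4.3.3, mean-variance trend) was fitted to log2(value + 1) for genes with a value of at least 1 in 3 or more of the 6 libraries compared. Limma was also run on simulated counts that did not model the haemoglobin differences of these libraries, and no result here rests on that run. EdgeR 4.0.16 and DESeq2 1.42.0 on recovered counts were alternatives, with other scalings, filters, pseudocounts, weights, sample sets and left-out libraries. Fold changes on the log2(value + 1) scale understate the change of low genes, and floors of 3 reads cover counting error only. Replicates of each group differed by more than counting error.

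The comparison, its gene lists and the naming rule were chosen with earlier results of these data known. Named were the 12 largest rises and falls without overlap, a panel, and from each of 59 lists up to 4 called and 3 uncalled genes; others are marked as chosen after their values were seen, and further called members of a list are given by name only. Some genes are not reported here by name; they stay in the fits and in the counts of each list. Leaving out each library in edgeR was also chosen after seeing the data. The row MCP-1 was taken out of the chemokine list after its value was seen, because its RefSeq synonyms name a defensin; it would have been another riser there. Of 8020 rows named by locus, 700 received a symbol from the RefSeq table of another assembly (mOryCun1.1), which served for symbols alone. Coordinates come from the authors' table (oryCun2).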

Additional observations from a re-analysis of the deposited data

Results flagged for a closer look

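The difference between the 2 operated levels passed the limma test for 43 genes, 12 higher and 31 lower in Fused than in ISC. Among named genes lower in Fused, the log2 differences from ISC were -5.37 for PRG4, -4.72 for ANGPTL5, a secreted angiopoietin-like protein, -4.18 for CHAD, -3.81 for PCOLCE2 and -3.22 for ABI3BP. RSPO2, a secreted enhancer of Wnt signalling, had a difference of -3.1, and PLOD2, which hydroxylates collagen lysines, one of -3.05. The values for SOX9, SERPINE2, THBS3 and COL16A1 were -2.37, -2.35, -2.33 and -2.15.

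RSPO2 had 9.29, 5.03 and 10.9 in Fused, 89.0, 78.8 and 64.2 in ISC and 33.0, 47.9 and 27.0 in Control. ANGPTL5 had 3.48, 4.02 and 1.09 in Fused, 76.1, 119 and 92.3 in ISC and 34.9, 71.1 and 33.1 in Control. For both genes each Fused library lay below every ISC and Control library, which for ANGPTL5 against Control follows from its choice. Of the genes higher in Fused, VCAM1, an adhesion protein, had a difference of 2.15 and FABP4 one of 3.04. VCAM1 had 251, 308 and 238 in Fused, 57.9, 75.2 and 46.1 in ISC and 53.7, 153 and 263 in Control, so that Fused and ISC did not overlap while Fused and Control did.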

How the results depend on the processing

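The 966 genes called in Fused against Control became 1037 after median centring, 834 after quantile normalization, 988 without the filter, 788 at a minimum value of 10, and 754 and 728 at pseudocounts of 0.1 and 5. EdgeR called 996, of which 886 were shared, and DESeq2 1371, of which 909 were shared. The count was 50 without the trend, 1878 with array weights, 25 when all 9 libraries shared 1 estimate of the spread, 0 with the haemoglobin covariate added (1315 genes at an unadjusted p under 0.05) and 0 without Fused replicates 2 and 3 together (1924 genes). Leaving out each library gave 0 to 2191 genes in limma and 0 to 2180 in edgeR, among them 4 without Control replicate 1 and 2 without Control replicate 3.

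The 43 genes called in Fused against ISC became 74 after median centring, 29 after quantile normalization, 79 without the filter, 0 without the trend (1557 genes at an unadjusted p under 0.05), 82 with array weights, 214 with all 9 libraries, 156 with the haemoglobin covariate, 29 in edgeR, 321 in DESeq2 and 0 without Fused replicates 2 and 3 (600 genes). Leaving out each library gave 0 to 24 genes in limma and 0 to 18 in edgeR, among them 14 without ISC replicate 2. The cause of these differences was not tested.

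The labels do not tie replicate numbers to animals. The deviations of same-numbered libraries from their group means correlated at -0.043, -0.057 and 0.032 for Fused and Control, and at 0.31, 0.31 and -0.10 for Fused and ISC. Libraries with different numbers correlated at -0.057 to 0.10 for Fused and Control, and at -0.50 to 0.28 for Fused and ISC. These values do not settle whether same-numbered libraries share an animal. With the replicate block 719 genes were called in Fused against Control and 88 in Fused against ISC.

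Of the 161 named genes called in Fused against Control, 58 changed sign, all when the haemoglobin share of each library was a covariate in the fit of all 9 libraries, and the others were not called there. With that covariate the log2 changes were MCP-1 -0.77, CAMP -0.28, LCN2 -0.064, MMP8 -0.52, RHAG -0.25, SLC4A1 -0.67, BPI -0.45, GATA1 -0.47, KLF1 -1.51, PTPRC -0.10 and COL4A3 -1.60. Further values with the covariate were RETN -0.45, HBB2 -0.10, HBQ1 -0.73, TRIM58 -0.058, TAL1 -0.34, TSPO2 -0.50, FECH -1.15, TFRC -0.88, EPB42 -0.42 and KEL -0.50. HBB2 and HBQ1 are themselves counted in the haemoglobin share, so the loss of their rise there follows from the covariate and is no separate result. The same fit gave MPO -1.49, SRGN -1.04, FCER1A -0.65, PRG2 -0.73, MS4A2 -0.37, EPX -0.99, MS4A1 -0.031, NKG7 -0.69, CD48 -0.38, CXCL12 -0.38, TK1 -1.19 and POLE -1.22. It also gave TOP2A -0.54, BUB1 -1.75, MKI67 -1.64, CENPF -0.57, CA2 -1.34, RUFY4 -0.61, CMPK2 -0.47, RSAD2 -0.39, IFIT3 -0.33, C5AR1 -0.41, GCLM -0.060 and PSMB8 -0.38. Other risers there had EZH2 -1.32, LMNB1 -1.32, LBR -1.20, MCP2 -1.01, LOC100009136 -0.70, LOC100009135 -1.91, E2F1 -1.28 and FOXM1 -0.35. Of the genes that fell, it gave LAMA2 0.010, TIMP3 0.13, NCAM1 0.45, PDGFC 0.014 and PER2 0.14. The share did not overlap between Fused and Control, so this fit separates its effect poorly from that of the group. The cause was not tested. At these depths a value of 2.40 to 3.58 stands for 3 reads, which limits genes at low values.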

Other observations

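Single libraries stood apart in genes of nerve and platelets, all named after their values were seen. NEFM, a neurofilament of nerve fibres, had 4.65, 555 and 4.37 in Fused and 10.4, 20.8 and 7.83 in Control (adjusted p = 0.767). PPBP, a platelet chemokine, had 1.16, 83.5 and 3.28 in Fused and 0, 0 and 0.870 in Control (adjusted p = 0.194), and ITGA2B, a platelet integrin, had 9.29, 172 and 14.2 in Fused and 13.2, 9.58 and 4.35 in Control (adjusted p = 0.338). Fused replicate 2 was the highest of the 6 libraries for all 3 genes. FOSB, an immediate early gene, had 46.5, 129 and 44.8 in Fused and 539, 5.59 and 16.5 in Control (adjusted p = 0.809), with Control replicate 1 the highest.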
